A study of Mus musculus with 24 samples.

Results

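The genes of antigen presentation by major histocompatibility complex (MHC) molecules were followed in lung RNA-Seq of aged mice in a house-dust mite (HDM) model of asthma. They were 10 of the 23891 genes in the table and were taken by symbol. The class II group held H2-Aa, H2-Ab1, H2-Eb1, Cd74, Ciita and H2-DMa (6 genes), and the class I group held H2-K1, H2-D1, B2m and Tap1 (4 genes). All 10 passed the filter of a mean of 1 CPM, in which CPM scales the counts on genes of each library to a common total. The samples were left lung lobes of 24 C57BL/6 mice. Adult mice of 20 wk given saline (n = 5, "adult saline") and aged mice of 80 wk given saline (n = 5, "aged saline") were the controls. The other aged mice received intranasal HDM at 50 µg per dose, either alone (n = 7, "HDM") or together with the synthetic steroid dexamethasone (Dex), 4 mg/kg each 72 h (n = 7, "HDM + Dex"). The final HDM dose came 24 h before the lungs were collected. No adult mice given HDM were among these samples, and a whole lobe mixes all cell types, so that fewer cells of a type and less RNA per cell cannot be told apart.

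MHC class II molecules display peptides from engulfed material, such as inhaled allergen, to CD4+ T cells, and are made mainly by dendritic cells, B cells and macrophages. Their α and β chains assemble with the invariant chain, which H2-DM later helps to replace with a peptide, and CIITA is the coactivator that switches the whole class II set on. MHC class I molecules are carried by nearly all nucleated cells, need β2-microglobulin, and display peptides that the TAP transporter brings from the cytosol to CD8+ T cells. Interferon-γ is known to raise both sets. C57BL/6 mice carry the b haplotype, which makes I-A but no functional I-E α chain, so the I-E β chain encoded by H2-Eb1 has no partner in them.

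Of the 10 genes, 7 lie in the MHC region of chromosome 17. On GRCm38, H2-K1 is at chr17:33996017-34000347, H2-DMa at chr17:34119541-34139101, Tap1 at chr17:34187553-34197225, H2-Ab1 at chr17:34257689-34269419, H2-Aa at chr17:34282744-34287823, H2-Eb1 at chr17:34305867-34316674 and H2-D1 at chr17:35262730-35267499. B2m is at chr2:122147686-122153083 and Ciita at chr16:10480059-10528418. The stretch of 200 bases before the start of 5 genes is printed from RefSeq (GRCm38.p6), because class II and class I promoters carry shared elements through which both sets are known to be switched on together. The windows are chr17:34287824-34288023 on the minus strand for H2-Aa, chr17:34305667-34305866 on the plus strand for H2-Eb1, chr17:34000348-34000547 on the minus strand for H2-K1, chr17:35262894-35263093 on the plus strand for H2-D1, and chr2:122147487-122147686 on the plus strand for B2m. The RefSeq start of H2-D1 lies 364 bases from the annotated 5′ end, and that of H2-DMa, whose window is not printed, 3291 bases from it and inside the annotated gene. Capitals mark the CCAAT box, the motif TGACG, letters like an interferon-stimulated response element or ISRE (AGTTTC followed after any 2 bases by TTCT) and GGGATTCCC (a κB-like element), each searched on both strands.
H2-Aa: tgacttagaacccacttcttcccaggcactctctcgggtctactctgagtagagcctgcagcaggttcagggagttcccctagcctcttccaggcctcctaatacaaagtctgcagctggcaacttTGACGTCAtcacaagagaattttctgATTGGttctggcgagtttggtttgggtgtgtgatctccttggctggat
H2-Eb1: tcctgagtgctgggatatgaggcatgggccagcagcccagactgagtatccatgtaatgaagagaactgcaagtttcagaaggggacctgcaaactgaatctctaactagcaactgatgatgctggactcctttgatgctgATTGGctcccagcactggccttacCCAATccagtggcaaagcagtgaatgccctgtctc
H2-K1: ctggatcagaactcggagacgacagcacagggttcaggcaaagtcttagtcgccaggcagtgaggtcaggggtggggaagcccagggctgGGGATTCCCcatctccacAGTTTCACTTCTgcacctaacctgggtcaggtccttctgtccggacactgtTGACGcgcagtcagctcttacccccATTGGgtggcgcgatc
H2-D1: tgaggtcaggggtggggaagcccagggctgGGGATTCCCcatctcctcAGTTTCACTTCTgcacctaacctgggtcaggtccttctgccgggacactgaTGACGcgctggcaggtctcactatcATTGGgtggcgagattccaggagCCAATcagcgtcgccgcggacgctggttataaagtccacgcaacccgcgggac
B2m: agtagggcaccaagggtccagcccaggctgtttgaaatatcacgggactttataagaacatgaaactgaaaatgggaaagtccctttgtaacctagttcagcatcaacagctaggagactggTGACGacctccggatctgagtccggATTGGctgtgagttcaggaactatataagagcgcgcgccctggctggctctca

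Promoter windows were given for 7 of the 10 genes, and 250 bases before each start were searched. CCAAT was found in 6 of the 7 (not in H2-DMa, whose window does not lie at the annotated 5′ end) and in 33.8% of all 32851 windows of that length. TGACG was found in 5 of the 7 (H2-Aa, H2-K1, H2-D1, B2m and Tap1) and in 17.8% of all windows. The ISRE-like letters were found in H2-K1 and H2-D1 and in 0.189% of all windows. GGGATTCCC was found in the same 2 genes and in 0.301% of all windows. In H2-K1 the κB-like letters begin 110 bases before the start and the ISRE-like letters 92 bases before it, and in H2-D1 they begin 170 and 152 bases before it. In H2-Aa a pair of overlapping TGACG matches, 1 on each strand, begins 74 and 71 bases before the start, ahead of a CCAAT on the opposite strand at 48 bases. A palindrome like a glucocorticoid response element (GNACA, any 3 bases, TGTNC) was in 0 of the 7 windows and in 0.387% of all windows. These are matches of letters in a short window.

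Cd74 and B2m gave the highest levels per length, and Ciita and H2-DMa the lowest. Per kilobase of exon, the mean level of B2m, the light chain of class I, was 296 ± 107 CPM in adult saline, 441 ± 82.5 in aged saline, 552 ± 222 in HDM and 411 ± 205 in HDM + Dex (mean ± SD). Cd74, the invariant chain, stood at 243 ± 93.1, 439 ± 45.6, 629.9 ± 211 and 453 ± 226 CPM per kilobase. After these came H2-D1 and H2-K1, the classical heavy chains, then H2-Ab1, H2-Eb1 and H2-Aa, the class II chains, in the same order in each group. Neighbours in the order overlapped in range, apart from H2-Aa and Tap1, which did not overlap in any group, Tap1 and H2-DMa in adult saline, and Cd74 and H2-D1 in aged saline. Tap1, a TAP subunit, had 6.197 ± 1.41, 9.05 ± 2.495, 16.04 ± 7.56 and 11.1 ± 3.91 CPM per kilobase in the same group order. Ciita had 3.26 ± 0.95, 6.04 ± 1.39, 9.33 ± 3.38 and 6.96 ± 3.05. The lowest CPM of any of the 10 genes in any sample, 9.19 for H2-DMa, was far above the 0.0906 to 0.298 CPM that 3 reads give in these libraries.

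**Figure D1:**
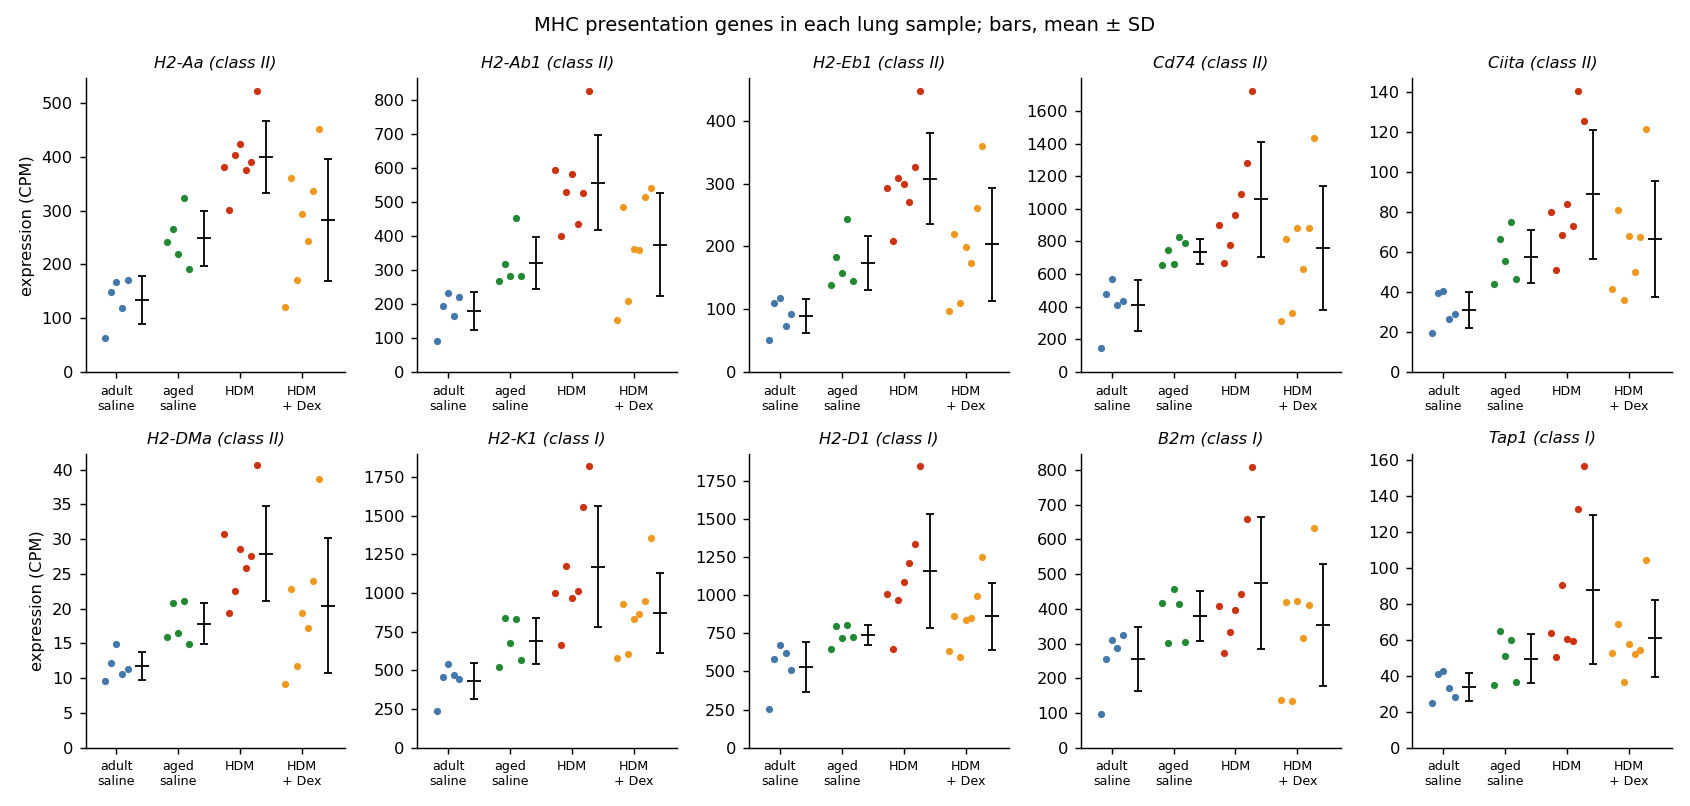
CPM (y axis, linear from 0) of the 10 genes in each of the 24 samples, by group on the x axis. Points are samples in replicate order and black bars are the group mean ± SD. In H2-Eb1, for example, adult saline lies between 51.7 and 118 CPM, aged saline between 138 and 244, HDM between 208 and 447 and HDM + Dex between 97.8 and 359.6.

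The class II chains had their lowest values in adult saline and their highest in HDM, with aged saline between, and HDM + Dex spread widely. H2-Ab1, the I-A β chain, had 90.0, 193, 231, 163 and 220.4 CPM in the 5 adult saline samples and 266, 319, 283, 454 and 283 in the 5 aged saline samples. With HDM its lowest, median and highest values were 401, 530.2 and 826 CPM, and with HDM + Dex 154, 362 and 542. All aged saline values were above all adult values, HDM overlapped aged saline through 1 aged saline sample at 454 CPM, and HDM + Dex overlapped every other group. H2-Aa, its α chain, had 63.6, 149.7, 167, 118 and 170.3 CPM in adult saline and 241, 266, 219, 324 and 192 in aged saline. The lowest, median and highest values were 302, 389.7 and 523 CPM with HDM and 121, 293 and 452 with HDM + Dex. H2-Eb1 had 51.7, 110.4, 118, 73.6 and 92.5 CPM in adult saline and 138, 182, 157, 244 and 145 in aged saline, and 208, 299 and 447 with HDM and 97.8, 199 and 359.6 with HDM + Dex. For both genes the 5 aged saline samples lay above the 5 adult samples, and HDM was the higher in 34 of 35 pairings with an aged saline sample. H2-Aa and H2-Ab1 kept a nearly fixed ratio, 0.740 ± 0.032 in adult saline, 0.781 ± 0.092 in aged saline, 0.732 ± 0.078 in HDM and 0.762 ± 0.071 in HDM + Dex.

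The other class II genes followed the same order of means with more overlap. Cd74 had 150.3, 477, 569, 412 and 434 CPM in adult saline and 656, 746, 663, 827 and 793 in aged saline. Its lowest, median and highest values were 669, 963 and 1721 CPM with HDM and 315, 813 and 1436 with HDM + Dex. HDM replicates 2 and 3, at 669 and 781 CPM, lay within the aged saline range, and the other HDM samples above it. Ciita had 19.5, 39.7, 40.7, 26.7 and 28.98 CPM in adult saline and 43.8, 66.7, 55.7, 75.2 and 46.6 in aged saline. With HDM it ran from 50.8 through a median of 79.9 to 141 CPM, and with HDM + Dex from 35.8 through 67.6 to 121. H2-DMa, a chain of the peptide exchanger H2-DM, had 9.62, 12.2, 14.96, 10.6 and 11.3 CPM in adult saline and 15.9, 20.8, 16.5, 21.1 and 14.8 in aged saline. It reached 19.4, 27.6 and 40.6 CPM with HDM and 9.19, 19.4 and 38.6 with HDM + Dex (lowest, median and highest). Ciita separated adult from aged saline without overlap, and H2-DMa did not, by 1 adult sample at 14.96 CPM.

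The class I genes overlapped between neighbouring groups. H2-K1 had 238, 456, 544, 470.2 and 444 CPM in adult saline and 519, 841, 676, 832 and 564 in aged saline. Its lowest, median and highest values were 665, 1010.4 and 1818 CPM with HDM and 577, 866 and 1356 with HDM + Dex. HDM overlapped aged saline, and HDM + Dex overlapped both. H2-D1 had 252, 579.8, 673, 619 and 512 CPM in adult saline and 648, 797, 720.3, 808 and 723 in aged saline, and 646, 1089 and 1845 with HDM and 594, 854 and 1248 with HDM + Dex. B2m had 96.5, 254, 309.7, 286 and 325 CPM in adult saline and 417, 301, 456, 415 and 306 in aged saline. With HDM it ran from 272 through 409 to 809.7 CPM and with HDM + Dex from 136 through 412 to 632, close to the aged saline median of 415. Tap1 had 24.7, 40.7, 42.6, 33.4 and 28.3 CPM in adult saline, 34.7, 65.2, 51.2, 60.1 and 36.6 in aged saline, and 50.7, 64.1 and 157 with HDM and 36.6, 54.4 and 104 with HDM + Dex. Reads of H2-K1, H2-D1 and the near-identical H2-Q genes may have been divided among them in the counting, so their separate values are uncertain.

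The same mice stood at the ends of the ranges in gene after gene. HDM replicate 2 was the lowest HDM sample in 10 of 10 genes, replicate 7 was the highest in 9 and replicate 6 in Ciita. HDM + Dex replicate 7 was the highest of its group in 10 of 10 genes, and the lowest was replicate 1 or 3. Adult saline replicate 1 was the lowest of all 24 samples for each gene but H2-DMa, for which HDM + Dex replicate 1 was lower at 9.19 CPM. Sex was read from Xist and Ddx3y, since the labels do not give it. All 5 adult mice were female, against 2 of 5 aged saline, 2 of 7 HDM and 4 of 7 HDM + Dex mice. HDM replicates 6 and 7 and HDM + Dex replicate 7 were female, and HDM + Dex replicates 1 and 3 and HDM replicate 2 were male. 7SL RNA (Rn7s1 and Rn7s2) took a median of 16.2% of counts in adult saline, 10.9% in aged saline, 28.1% in HDM and 26.8% in HDM + Dex. Its share was 15.4% and 14.96% in HDM replicates 6 and 7 and 27.1% to 34.0% in the other HDM samples, and adult saline replicate 1 had 42.0%. CPM is set by the total, and all genes together had a median log2 fold change with HDM of −0.23 as deposited and −0.0088 after rescaling by median-of-ratios, HDM + Dex against saline −0.19 and −0.011, and aged against adult 0.19 and 0.0042, so each comparison is also given on the rescaled CPM. The depth was estimated at 10.1 M to 33.1 M reads.

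HDM challenge was compared with saline in the aged mice to ask whether allergen raised presentation genes. With HDM, 6 of the 10 genes were higher by limma (adjusted p under 0.05) and 0 were lower, where 25.3% of all 17744 genes tested were called and 4.04% were called higher. The class II chains were among the 6. H2-Eb1 rose by 0.82 ± 0.25 on the log2 scale (SE, 1.77-fold, adjusted p = 0.021), H2-Ab1 by 0.79 ± 0.26 (1.72-fold, adjusted p = 0.0311) and H2-Aa by 0.69 ± 0.24 (1.62-fold, adjusted p = 0.0368). In the class I group, H2-K1 rose by 0.73 ± 0.23 (1.66-fold, adjusted p = 0.0235), Tap1 by 0.74 ± 0.27 (1.67-fold, adjusted p = 0.0467) and H2-D1 by 0.59 ± 0.20 (1.504-fold, adjusted p = 0.0383). The genes not called were H2-DMa at 0.60 ± 0.24 (adjusted p = 0.0747), Ciita at 0.57 ± 0.26 (adjusted p = 0.110), Cd74 at 0.46 ± 0.29 (adjusted p = 0.24) and B2m at 0.25 ± 0.33 (adjusted p = 0.585). The log2 fold change was positive for 10 of 10 genes, against 26.6% of all genes, and its median was 0.65 against −0.23 for all genes. At an unadjusted p under 0.05, 8 of the 10 were higher, where 6.58% of all genes were. The ranges of the groups overlapped for each of the 10, and for all but 1.03% of genes on the higher side.

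After rescaling, 9 of the 10 genes were higher with HDM, where 22.5% of genes were called and 10.9% were called higher. H2-Eb1 then stood at 1.08 ± 0.22 and H2-K1 at 0.98 ± 0.19, and B2m, at 0.51 ± 0.27 (adjusted p = 0.187), was the gene not called. HDM then lay above aged saline without overlap for 5 genes (H2-Aa, H2-Ab1, H2-Eb1, Cd74 and H2-DMa), all of class II, where 3.7% of all genes did. The class I genes came close, with HDM the higher in 34 of 35 pairings for H2-K1, H2-D1 and Tap1 and 32 for B2m. For Ciita, of class II, it was 33. The rescaled median log2 fold change was 0.89 for the class II genes and 0.91 for the class I genes. The calls on the CPM as deposited rested on few mice. Without aged saline replicate 1 or replicate 5, 0 of the 10 genes were called, without aged saline replicate 3 H2-K1 alone, and without HDM replicate 1 or 7 H2-Eb1 and H2-K1. Without HDM replicate 4, H2-Eb1, H2-K1 and Tap1 were called. Over the 12 samples left out in turn, H2-K1 was called 10 times, H2-Eb1 9 times and H2-D1 3 times.

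**Figure D2:**
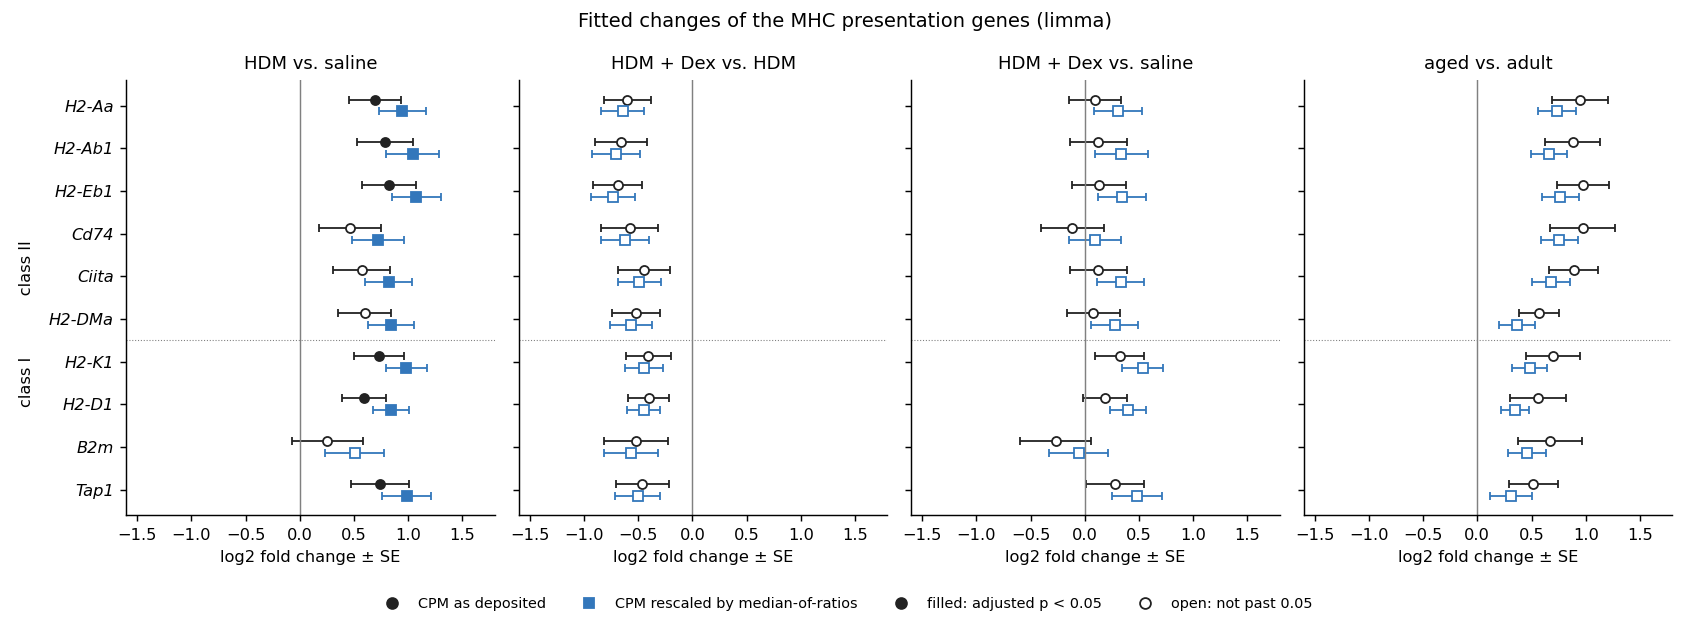
Log2 fold change with its SE (x axis) of each gene (y axis, class II above the dotted line and class I under it) in 4 comparisons, from limma on log2(CPM + 1). Black circles are the CPM as deposited and blue squares the rescaled CPM, and filled symbols have an adjusted p under 0.05. Filled symbols occur in HDM vs. saline, for 6 genes as deposited and 9 rescaled, and all 10 genes lie to the left of 0 in HDM + Dex vs. HDM and to the right in aged vs. adult.

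Dex added to HDM was compared with HDM alone to ask whether the steroid lowered the presentation genes. By limma 0 of the 10 genes were called, where 0.964% of all genes were called and 0.214% were called lower. Their log2 fold changes were negative in 10 of 10, against 43.8% of all genes, and 6 had an unadjusted p under 0.05, against 4.96% of all genes lower at that level. H2-Eb1 had the largest difference, −0.69 ± 0.23 (adjusted p = 0.15), followed by H2-Ab1 at −0.66 ± 0.24 (adjusted p = 0.186) and H2-Aa at −0.60 ± 0.22 (adjusted p = 0.192). Cd74 stood at −0.58 ± 0.26, H2-DMa at −0.52 ± 0.22 and Ciita at −0.45 ± 0.24. In the class I group B2m stood at −0.52 ± 0.30, Tap1 at −0.46 ± 0.24, H2-K1 at −0.41 ± 0.21 and H2-D1 at −0.40 ± 0.19. The groups overlapped in each gene, as they did on the lower side for all but 0.0789% of genes, and a mouse given Dex had the higher H2-Eb1 in 8 of 49 pairs and the higher B2m in 18 of 49. With sex as a covariate, H2-Eb1 was called lower at −0.86 ± 0.19 (adjusted p = 0.033) and the other 9 were not, H2-Ab1 having an adjusted p of 0.0505, where 0.924% of all genes were called lower. With rescaled values 0 were called, 10 had an unadjusted p under 0.05, where 9.31% of all genes were lower at that level, and H2-Eb1 stood at −0.73 ± 0.20 (adjusted p = 0.0531), where 2.87% of all genes were called and 0.877% were called lower.

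The mice given HDM + Dex were also set against aged saline, to ask what remained of the HDM response under the steroid. This comparison shares its samples with both others. By limma 0 of the 10 genes were called and 0 had an unadjusted p under 0.05, where 1.89% of all genes were called and 21.2% had such a p, 2.64% on the higher and 18.6% on the lower side. The log2 fold change was positive for 8 of 10, against 22.4% of all genes. H2-K1 had the largest difference at 0.32 ± 0.23 (adjusted p = 0.392), and B2m the most negative at −0.27 ± 0.33 (adjusted p = 0.627). The class II genes lay between −0.12 ± 0.29 for Cd74 and 0.13 ± 0.25 for H2-Eb1. Rescaled, the range ran from −0.057 ± 0.27 for B2m to 0.53 ± 0.19 for H2-K1 (adjusted p = 0.167), Cd74 changed sign to 0.10 ± 0.24, and 0 were called, where 0.961% of all genes were. At an unadjusted p under 0.05, 3 of the rescaled 10 were higher, where 7.9% of all genes were, and all 3 were class I genes (H2-K1, H2-D1 and Tap1).

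Aged and adult mice given saline were compared to ask whether age alone altered presentation genes. By limma 0 of the 10 genes were called, where 0.654% of all genes were called and 0.592% were called higher. All 10 log2 fold changes were positive, as were those of 79% of all genes, and 10 had an unadjusted p under 0.05, against 10% of all genes higher at that level. H2-Eb1 stood at 0.98 ± 0.24 (adjusted p = 0.0786), Cd74 at 0.97 ± 0.30 (adjusted p = 0.192), H2-Aa at 0.95 ± 0.26 (adjusted p = 0.133), Ciita at 0.89 ± 0.23 (adjusted p = 0.094) and H2-Ab1 at 0.88 ± 0.26 (adjusted p = 0.161). H2-K1 stood at 0.70 ± 0.25, B2m at 0.67 ± 0.29, H2-DMa at 0.57 ± 0.18, H2-D1 at 0.56 ± 0.26 and Tap1 at 0.52 ± 0.22. The groups did not overlap for 5 genes, all of class II (H2-Aa, H2-Ab1, H2-Eb1, Cd74 and Ciita), where 2.91% of all genes did not overlap with the aged mice higher. Once rescaled, 4 of the 10 did not overlap, against 1.71% of all genes, and H2-Eb1 stood at 0.77 ± 0.17 (adjusted p = 0.0538). Without adult saline replicate 1, Cd74 was called at 0.64 ± 0.13 (adjusted p = 0.0404). The adult mice were all female and 3 of the 5 aged mice were male, and adult saline replicate 1 was the lowest adult sample for each of the 10 genes.

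Values were also compared within each sex, with no test. With HDM against aged saline, 10 of 10 genes were higher in females (2 against 2 mice) with no overlap, but so were 28.7% of all genes. In males (5 against 3 mice) 10 of 10 were higher, and 3 did not overlap, against 2.86% of all genes. With HDM + Dex against HDM, 10 of 10 genes were lower in females (4 against 2 mice), 5 of them without overlap, where 14.4% of all genes were. They were also lower in 10 of 10 in males (3 against 5 mice), 0 without overlap, where 4.06% of all genes were. HDM + Dex against aged saline went apart by sex, with 9 of 10 genes higher in females (4 against 2 mice, median log2 difference 0.28) and 2 of 10 in males (3 against 3 mice, median −0.21). On the rescaled CPM these were 10 of 10 and 8 of 10, and the difference between the sexes was not tested. Aged females (n = 2) were above the 5 adult females in 10 of 10 genes without overlap, where 17.5% of all genes were. On the rescaled CPM that count was 9 of 10, against 10.3% of all genes.

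Class II and class I moved together across the samples. The mean log2(CPM + 1) of the 6 class II genes was 6.34 ± 0.48 in adult saline, 7.21 ± 0.25 in aged saline, 7.86 ± 0.34 in HDM and 7.28 ± 0.66 in HDM + Dex. That of the 4 class I genes was 7.66 ± 0.50, 8.27 ± 0.21, 8.85 ± 0.51 and 8.40 ± 0.50 in the same order. The class II mean less the class I mean was −1.33 ± 0.16 in adult saline, −1.06 ± 0.13 in aged saline, −0.99 ± 0.22 in HDM and −1.12 ± 0.20 in HDM + Dex. HDM shifted the difference by 0.079 against saline and HDM + Dex by −0.13 against HDM, both within 1 SD of the groups, and aged differed from adult saline by 0.26, more than 1 SD of either. The ranges of these 2 groups still overlapped, −1.61 to −1.25 in adult saline and −1.26 to −0.91 in aged saline. Adult saline replicate 4 stood alone at −1.61, and the next adult sample was replicate 3 at −1.27. HDM + Dex differed from aged saline by −0.056. Within the class I group the group means of the ratio of heavy to light chain differed. The ratio of H2-K1 to B2m was 1.805 ± 0.41 in adult saline, 1.87 ± 0.59 in aged saline, 2.54 ± 0.44 in HDM and 2.86 ± 1.04 in HDM + Dex. That of H2-D1 to B2m was 2.16 ± 0.37, 2.02 ± 0.48, 2.51 ± 0.31 and 2.88 ± 1.14. The higher means of HDM + Dex rested on replicates 1 and 3, with ratios of 4.19 and 4.48 for H2-K1 and 4.62 and 4.38 for H2-D1. In the other 5 mice H2-K1 to B2m ran from 1.96 to 2.74 and H2-D1 to B2m from 1.97 to 2.701. Without these 2 mice the means were 2.27 ± 0.29 and 2.23 ± 0.32, below those of HDM, as the medians of all 7 were (2.30 against 2.44, and 2.42 against 2.47). Both ratios overlapped between HDM and saline and between HDM and HDM + Dex.

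**Figure D3:**
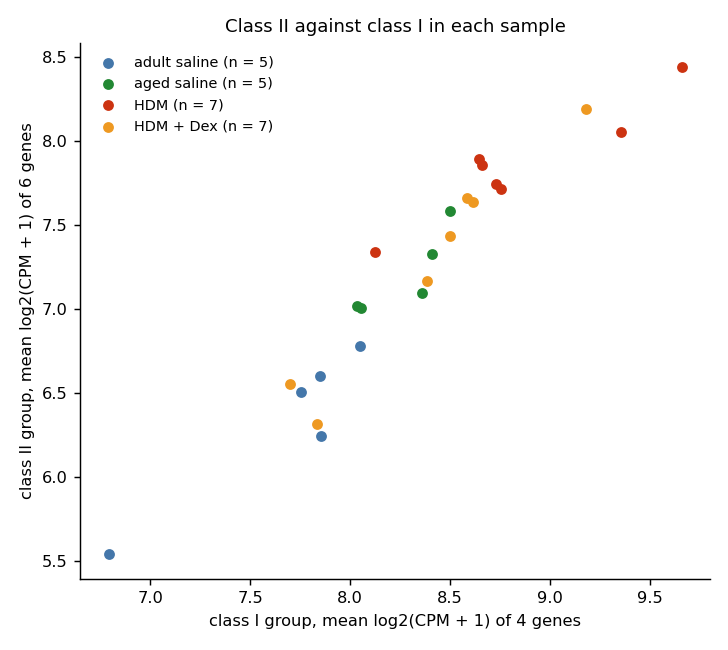
Mean log2(CPM + 1) of the 6 class II genes (y axis) against that of the 4 class I genes (x axis). Each point is 1 of the 24 samples, coloured by group. The samples lie along 1 diagonal from adult saline, with group means of 6.34 and 7.66, to HDM, with group means of 7.86 and 8.85, and HDM + Dex covers most of its length.

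Some of the lysosomal enzymes that prepare class II peptides were higher with HDM. Of the 10 measured genes of class II processing and regulation, 5 were higher and 0 were lower, where 4.04% of all genes were higher and 21.2% lower, and 3 of the 10 had a negative log2 fold change. After rescaling 6 were higher, where 10.9% of all genes were, Ctsd (cathepsin D) having joined at 0.87 ± 0.28 (adjusted p = 0.0307). On the CPM as deposited the log2 fold changes had a median of 0.86, where the 6 class II members had 0.65. Ctss, cathepsin S, which trims the invariant chain, had 163 to 289 CPM in aged saline and 285, 1013 and 1329 (lowest, median and highest) with HDM, and rose by 1.96 ± 0.32 on the log2 scale (adjusted p = 0.000537). Ifi30, the lysosomal thiol reductase GILT, rose by 1.42 ± 0.23 (adjusted p = 0.000559), from 27.1 to 47.0 CPM in aged saline to 47.1, 109 and 129 with HDM. Lgmn, legumain, an asparaginyl endopeptidase, rose by 1.25 ± 0.25 (adjusted p = 0.00176) and Ctsb, cathepsin B, by 1.12 ± 0.28 (adjusted p = 0.00709). These 4 were called with each of the 12 samples left out. Ctsl, cathepsin L, the other gene called, stood at 1.18 ± 0.43 (adjusted p = 0.0485), and its call held in 3 of the 12 cases (HDM replicates 2, 6 and 7), with adjusted p from 0.0168 to 0.0976. HDM replicate 2, the lowest HDM sample for the members, was also the lowest for these 4, and HDM replicate 5 was the highest for Ctss, Lgmn and Ctsb. The other class II chains and chaperones gave 0 of 5 called, all 5 with a positive log2 fold change (median 0.52), and 2 at an unadjusted p under 0.05. After rescaling 2 of the 5 were called higher, where 10.9% of all genes were. The median was then 0.71, and 4 had an unadjusted p under 0.05.

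Of the 13 genes that load or regulate class I, 2 were higher with HDM and 0 lower, where 4.04% of all genes were higher, with a median of 0.40. These were Calr, the chaperone calreticulin, at 0.51 ± 0.16 (adjusted p = 0.0253), and Tapbpl, the peptide editor TAPBPR, at 0.49 ± 0.17 (adjusted p = 0.0422). The call for Calr was lost without aged saline replicate 1, 3 or 5 or HDM replicate 4 (adjusted p up to 0.0856), and that for Tapbpl in 8 of the 12 cases (up to 0.112), aged saline replicates 1, 2, 3 and 5 and HDM replicates 3, 4, 6 and 7. After rescaling 8 of the 13 were higher, where 10.9% of all genes were. Of the 13 other class I heavy chains tested, H2-M2 and H2-T23 were higher and 0 lower. H2-M2, a nonclassical heavy chain, had 0.323, 0.346, 0.683, 0.162 and 0.323 CPM in adult saline, where 3 reads give 0.148 to 0.242 CPM. It had 2.22, 3.64, 6.48, 12.4 and 2.42 CPM in aged saline, and 12.1, 32.1 and 64.5 with HDM and 4.48, 8.65 and 26.2 with HDM + Dex. Its adult samples lay below all others, and aged saline and HDM overlapped through 1 aged saline sample at 12.4 CPM. By limma H2-M2 was higher with age by 2.02 ± 0.32 (adjusted p = 0.00472), higher with HDM by 2.43 ± 0.39 (adjusted p = 0.000509) and lower with HDM + Dex than with HDM by 1.47 (SE 0.35, adjusted p = 0.0454). The last call held in 3 of 14 cases when 1 sample was left out (HDM replicate 2 or 6 or HDM + Dex replicate 6), with adjusted p from 0.0116 to 0.112, and the other calls held in each case. H2-T23, the Qa-1 heavy chain, rose by 0.61 ± 0.21 with HDM (adjusted p = 0.033), a call lost without aged saline replicate 1, 3 or 5 or HDM replicate 3, 6 or 7 (adjusted p up to 0.0787). On the rescaled CPM 6 of these 13 heavy chains were higher, against the same 10.9%, and Ifi30 and Tapbp joined H2-M2 as lower with HDM + Dex than with HDM.

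**Figure D4:**
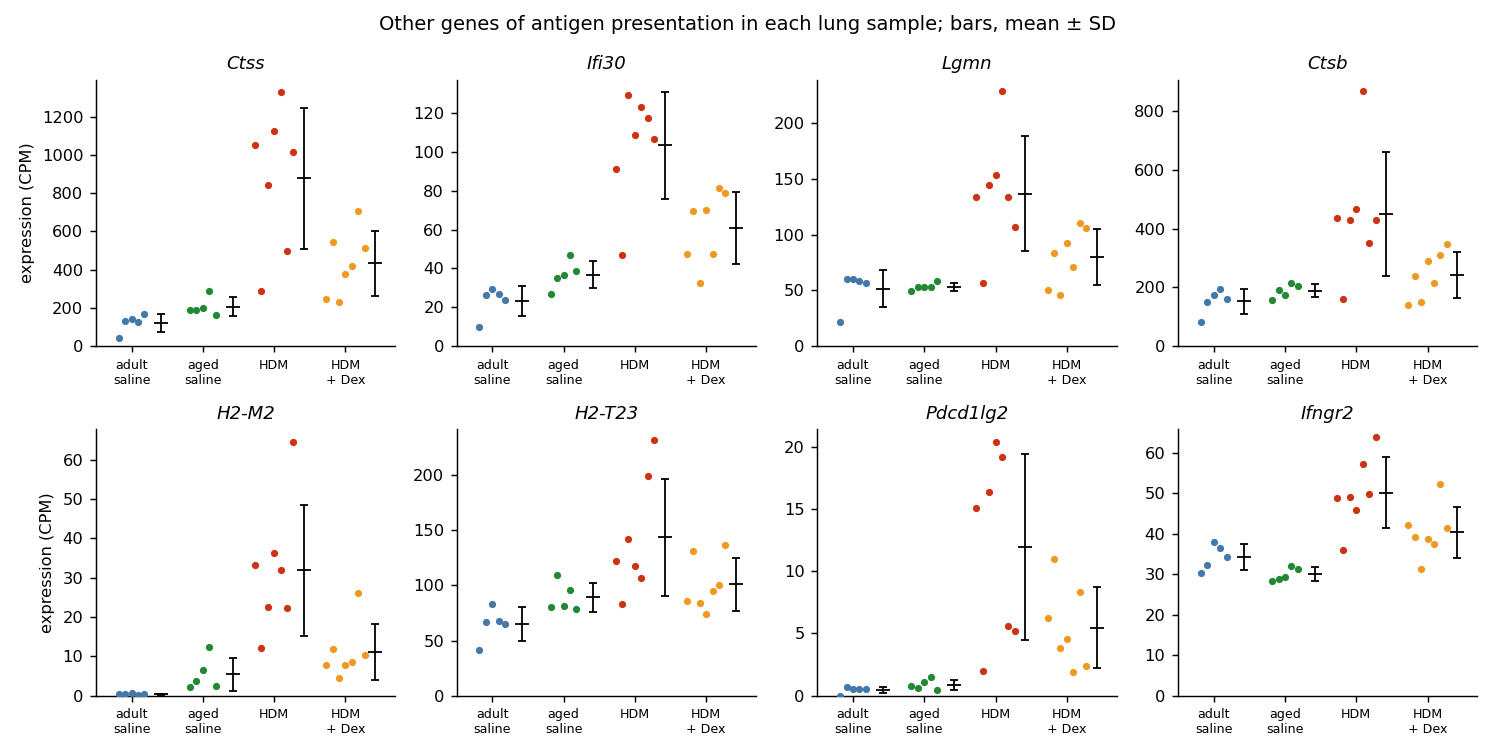
CPM (y axis, linear from 0) of 8 other genes of antigen presentation in each of the 24 samples, by group on the x axis. Points are samples in replicate order and black bars are the group mean ± SD. Ctss has a mean of 206 CPM in aged saline, 877 in HDM and 434 in HDM + Dex, and H2-M2 has means of 5.43, 31.9 and 11.0.

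The signals around presentation moved in part. Of 8 genes of interferon-γ signalling tested, Ifngr2, a receptor chain, rose with HDM by 0.71 ± 0.13 (adjusted p = 0.00116) and Socs1, a feedback inhibitor, by 1.02 ± 0.29 (adjusted p = 0.0153), and 0 fell. The log2 fold change was positive for 4 of the 8, and 4.04% of all genes were called higher. On the rescaled CPM 7 of the 8 were positive and 4 were called higher, where 10.9% of all genes were. Of 6 costimulatory genes, Pdcd1lg2, the inhibitory ligand PD-L2, rose by 2.50 ± 0.42 (adjusted p = 0.00059) and Cd40 by 0.56 ± 0.19 (adjusted p = 0.0334). The call for Cd40 was lost without aged saline replicate 1, 3 or 5 or HDM replicate 1, 3 or 6 (adjusted p up to 0.114). On the rescaled CPM 3 of the 6 costimulatory genes were called higher with HDM. Pdcd1lg2 had 0.777, 0.630, 1.06, 1.51 and 0.495 CPM in aged saline, 2.01, 15.1 and 20.4 with HDM, and 1.94, 4.53 and 11.0 with HDM + Dex, where it was still 1.64 ± 0.42 above saline (adjusted p = 0.0455), where 0.445% of all genes were called higher. That call held in 3 of 12 cases when a sample was left out (HDM + Dex replicates 4, 5 and 7), with adjusted p from 0.0271 to 0.117, and was lost on the rescaled CPM (adjusted p = 0.0761). Of 4 T cell coreceptors 0 were called with HDM by limma, with 0 at an unadjusted p under 0.05. On the rescaled CPM 0 were called and 2 had such a p. Lag3, which binds MHC class II, was higher in aged than adult saline by 1.30 ± 0.27 (adjusted p = 0.0303), where 0.592% of all genes were called higher. The call for Lag3 held in 3 of 10 cases (without adult saline replicate 5 or aged saline replicate 1 or 5), with adjusted p from 0.00509 to 0.0856. Its adult values were 0.162 to 0.484 CPM in 4 samples, with no read in replicate 1, and its aged saline values 0.671 to 3.87. Targets of the glucocorticoid receptor were read beside the members as a measure of Dex. Of 8, 6 were lower with HDM than in saline, where 21.2% of all genes were, and 5 with HDM + Dex than in saline, where 1.44% were. On the rescaled CPM both counts were 2, against 11.6% and 0.458%. HDM + Dex and HDM, set against each other by limma, gave 0 calls and 0 at an unadjusted p under 0.05. The log2 fold change of HDM + Dex against HDM was negative for 7 of the 8, with a median of −0.20, and −0.25 rescaled. Against saline, Klf9, a transcription factor, was lower by 1.11 (SE 0.17) with HDM and by 1.05 (SE 0.17) with HDM + Dex. Tsc22d3 stood at −1.02 with HDM and −1.26 with HDM + Dex, Per1 at −0.86 and −1.09, and Cdkn1a at −0.65 and −0.90.

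Markers of cell types that present antigen moved unevenly with HDM, and their part in the members' values was not tested. Of all genes, 4.04% were called higher with HDM and 21.2% lower, and after rescaling 10.9% and 11.6%. Of 8 markers of monocytes and interstitial macrophages, 5 were higher and 0 lower, among them Csf1r (0.71 ± 0.215, adjusted p = 0.0199), C1qa (1.40 ± 0.38, adjusted p = 0.0105) and C1qb (1.82 ± 0.36, adjusted p = 0.00156). After rescaling 7 of the 8 were higher. The summed level of the 8, as deposited, ran from 163 to 219 CPM in aged saline, 188 to 611 with HDM and 142 to 362 with HDM + Dex. Of 9 markers of dendritic cells, Itgax (1.88 ± 0.28, adjusted p = 0.000419), Fscn1 and Ccl22 were higher, while Flt3 stood at 0.38 ± 0.27 and Zbtb46 at 0.044 ± 0.15. The median log2 fold change of the 9 was 0.12, with 2 negative, and 0.34 after rescaling, with the same 3 called. The sum of the 9 ran from 144 to 200.7 CPM in aged saline, 201.3 to 321 with HDM and 157.5 to 234 with HDM + Dex. Itgax alone made up 23.3 to 52.0, 51.6 to 205 and 48.6 to 121 CPM of it. Of 7 B cell markers 0 were called by limma, 1 having an unadjusted p under 0.05, with sums of 67.3 to 209.9, 90.2 to 256 and 72.5 to 339 CPM. The log2 fold change was positive for 2 of the 7 as deposited. After rescaling it was positive for 6, and 1 was called higher. Of 7 alveolar macrophage markers, Chil3 was higher at 3.02 on the log2 scale and Fabp1 lower, the other 5 were not called, and the log2 fold change was negative for 6 of 7 (median −0.58). Their sum ran from 186 to 268, 384 to 2771 and 338 to 1541 CPM, of which Chil3 alone made up 101 to 155, 330 to 2733 and 307 to 1479 CPM. After rescaling 4 of the 7 were negative (median −0.33), with the same 2 genes called. Of 3 general leukocyte genes, Laptm5, a lysosomal membrane protein, was higher with HDM at 0.95 ± 0.16 (adjusted p = 0.00069), while Coro1a stood at 0.42 ± 0.26 (adjusted p = 0.248) and Ptprc (CD45) at −0.041 ± 0.26 (adjusted p = 0.921). After rescaling Coro1a was also higher, at 0.67 ± 0.21 (adjusted p = 0.0283), and Ptprc stood at 0.21 ± 0.202 (adjusted p = 0.475). Relative to Ptprc, the lowest of the 3 in fold change with HDM, the ratio of H2-Ab1 was 1.16 ± 0.34 in adult saline and 1.15 ± 0.39 in aged saline. It was 1.998 ± 0.47 in HDM and 1.51 ± 0.60 in HDM + Dex. Its ranges overlapped, at 0.74 to 1.68 in aged saline and 1.22 to 2.64 in HDM. Ratios to Laptm5 or Coro1a were not taken, and the result depends on the gene chosen. Mean Laptm5 rose from 115 CPM in aged saline to 215 in HDM, and mean H2-Ab1 from 321 to 557. Between aged and adult saline, median log2 fold changes were 0.78 for monocyte and interstitial macrophage, 0.73 for B cell and 0.50 for general leukocyte markers. They were 0.37 for alveolar macrophage and 0.19 for dendritic cell markers, against 0.79 for the 10 members and 0.19 for all genes. In each of these lists 0 markers were called with age. No defining marker of these lists was without reads in all samples. The 5 lung markers, among them Sftpc and Sftpb, summed to 2519 CPM or more in every sample. Of 6 heart muscle genes 6 were lower with HDM, where 21.2% of all genes were, with sums of 558 to 1033 CPM in aged saline and 21.4 to 421 with HDM. After rescaling 6 were also lower, where 11.6% of all genes were.

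The genes that varied most like H2-Ab1 and H2-K1 within groups were mostly members of the same families, and the other members were not ranked in this way. Over the 24 samples, after removal of group means, log2(CPM + 1) of H2-Ab1 had a Pearson r of 0.962 with H2-Aa, 0.947 with H2-Eb1, 0.901 with H2-DMb1 (the partner of H2-DMa), 0.895 with Ndufb7 and 0.888 with Cd74. H2-K1 had 0.955 with H2-Q7, 0.9305 with H2-D1, 0.929 with H2-Q4 and 0.919 with both H2-Q6 and H2-T22. Between members, the median r was 0.888 for pairs within class II, 0.852 within class I and 0.825 across the classes, and 0.816, 0.671 and 0.706 on the rescaled CPM. All share the scaling of each library, and near-identical class I genes may share reads, so these are descriptions of 24 libraries.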

How the data were processed

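RNA-Seq was measured in left lung lobes of 24 mice, grouped by their sample labels. The study's methods give TruSeq stranded mRNA libraries with paired-end reads, which the authors took through a Picard-STAR-limma pipeline. They deposited CPM per gene, with a constant of 0.0001 added. The submitters' notes also name FastQC, DESeq2 and the build mm9, and the study's methods do not name DESeq2. Of 23891 symbols, 23142 had the start of the GENCODE annotation of GRCm38, so coordinates are on that build. Strand handling in the counting is not given in the sources used here. The deposited CPM were not whole multiples of 1 read for all low values (80.8% to 85.4% were, within 0.05 of a step), so no count test was run.

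Groups were compared by limma 3.58.1 under R 4.3.3 (linear models, eBayes with trend) from log2(CPM + 1), so fold changes of low genes are understated, for the 17744 genes whose mean reached 1 CPM. Values were adjusted by Benjamini-Hochberg over all of them, at 0.05. One fit of the 19 aged samples gave 3 comparisons, and one of the 10 saline samples gave aged vs. adult. Rescaling divided CPM by median-of-ratios factors. P-values set the difference between groups against the spread between the mice sampled. The depth estimates give reads per library, and bear on counting error and not on that spread. Python 3.11.15, numpy 2.4.6, pandas 2.3.3 and matplotlib 3.10.9 were used.

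The members and gene lists were chosen with earlier results of these data known. Named genes were the 10 members, up to 4 called genes per list and comparison with the lowest adjusted p, the first 3 markers of a list (not all are reported here), and the 5 genes most like H2-Ab1 and H2-K1. Fscn1, Ccl22, Chil3, Fabp1 and Ctsl, and Ifi30, Tapbp and Ctsd on the rescaled CPM, were named after their values were seen. Alternatives were pseudocounts of 0.1 and 5, no filter or one at 5 CPM, rescaling, other groups in the fit, a replicate block, covariates for sex and 7SL share, and leaving out each sample. Rescaling with the sex covariate was added after seeing the data.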

Additional observations from a re-analysis of the deposited data

Results flagged for a closer look

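Of the 40 sets of values examined (10 genes in 4 groups), in 4 the lowest sample was set apart by Dixon's gap at the 95% level, which chance gives in about 1 in 20. All 4 were adult saline replicate 1, the lowest of 5 samples. It had 150.3 CPM of Cd74, against 412 in the next sample, 238 of H2-K1 against 444, 252 of H2-D1 against 512 and 96.5 of B2m against 254. The 7SL share of this library was 42.0%, against 13.6% to 17.2% in the other adult samples. After rescaling it had 245 CPM of Cd74, 389 of H2-K1, 412 of H2-D1 and 158 of B2m, still below the other adult samples, whose lowest values were 361, 408, 492 and 227. Dixon's gap was taken on the deposited values and not on the rescaled ones, so being lowest there does not mean the flag held.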

How the results depend on the processing

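With HDM against saline, 6 of 10 genes were called, 2 with a replicate block (H2-Eb1 and H2-K1), where 3.61% of all genes were called higher, 10 with the 7SL share as a covariate, where 6.61% were, and 0 to 7 when 1 sample was left out, where 2.67% to 5.22% were. With the sex covariate in limma the 6 stayed called, and Ciita (adjusted p = 0.0287) and H2-DMa (adjusted p = 0.0278) joined them. Of all 17744 genes 957 were then called higher. With rescaling and the sex covariate B2m alone was not called (adjusted p = 0.0665), where 2049 of 17683 genes were called higher. B2m turned to -0.034 with the block. Same-numbered samples had correlations of -0.08 to 0.30 in this comparison, and -0.24 to 0.41 in HDM + Dex against HDM. In no comparison were all above 0.1, so the numbers were not treated as pairs. This check alone cannot exclude a pairing. With HDM + Dex against HDM, where 0 were called, H2-Eb1 was the 1 gene called with the sex covariate, with the 7SL covariate and with rescaling plus the sex covariate, an alternative chosen after seeing the data, where 0.924%, 1.41% and 1.28% of all genes were called lower. With aged against adult saline, 0 to 1 were called when 1 sample was left out. With HDM + Dex against saline, 0 were called in each alternative run, and 16 values changed sign. With the block, H2-Aa stood at -0.061, H2-Ab1 at -0.055, H2-Eb1 at -0.080, Ciita at -0.12 and H2-DMa at -0.12. When 1 sample was left out, H2-Aa ranged from -0.038 to 0.28, H2-Eb1 from -0.026 to 0.29, Cd74 from -0.30 to 0.068, Ciita from -0.038 to 0.25 and H2-DMa from -0.091 to 0.24, with the lowest without HDM + Dex replicate 7. Cd74 stood at 0.096 rescaled, 0.44 with the 7SL covariate and 0.027 rescaled with sex, H2-DMa at -0.0030 with the sex covariate and B2m at 0.40 with the 7SL covariate. The cause of these changes was not tested. The class II less class I shifts ranged over the alternatives from 0.03 to 0.13 for HDM, -0.19 to -0.07 for HDM + Dex against HDM, -0.11 to 0.01 for HDM + Dex against saline and 0.19 to 0.31 for age. Of the alternative values of the other named genes, 428 kept their side of the threshold and 96 lost it. The limits are 5 to 7 mice a group, and a sex ratio and a 7SL share that differ between groups.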
